A study of Homo sapiens with 6 samples.

Results

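A set of 39 genes of homologous recombination, the Fanconi anaemia pathway and the DNA damage checkpoint were followed in ZR-75-1 cells grown with or without abemaciclib. They were listed by name for their known function, with earlier results of these data known, so the shares given here are no independent evidence. All 39 were found by Ensembl identifier among the 60656 genes of the count table. Of these, 35 had enough counts for a test of the change with treatment. With abemaciclib 14 of the 35 genes (40.0%) fell, against a background of 13.3% of the 10863 genes tested that fell. A further 2 (5.71%) rose, against a background of 12.5%, and 19 did not pass the test. The filter on low counts was passed through the DMSO libraries alone by 6 of the 35, among them *EXO1*, *FANCA* and *FANCE*. Without these 6 genes 11 of 29 fell (37.9%), but the background was not cut in the same way. *RAD50*, which passed through the abemaciclib libraries alone, stayed among the 29. With at least 10 counts in every library, 11 of 27 fell (40.7%), against 13.5% of 9458 genes. The mediators *BRCA1*, *BARD1*, *BRCA2* and *BRIP1* fell, as did the exonuclease *EXO1* and the helicase *BLM* with its partners *RMI1* and *RMI2*. The strand invasion factor *RAD51AP1*, the Fanconi genes *FANCA*, *FANCE*, *FANCD2* and *FANCI*, and the checkpoint kinase *CHEK1* also fell. By role, 80.0% of the mediators and 50.0% of the genes of end resection and dissolution fell. The shares in strand exchange (20.0%), the Fanconi core complex (25.0%) and the checkpoint (16.7%) lay closer to the background of 13.3%. The genes that rose were *FANCM* and *CHEK2*, and both calls were lost in several alternative fits, DESeq2 among them. Among the genes that fell, the calls of *BRCA2* and *BLM* were likewise lost with DESeq2 and passed in 6 of 12 alternative fits each. That of *FANCE* passed in 9 of 11. Genes of the first break sensor (*MRE11*, *RAD50*, *NBN*) and of the upstream kinases (*ATM*, *ATR* and its partner *ATRIP*) did not pass the test in either direction.

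ZR-75-1 is an oestrogen receptor-positive breast cancer cell line. Parental cells, which were not edited at *RB1*, were grown in RPMI-1640 with fetal bovine serum and treated with 500 nM abemaciclib, an inhibitor of the kinases CDK4 and CDK6, or with the same volume of the solvent DMSO, both for 4 days. There were 3 libraries in each group, reported as independent biological replicates of this 1 cell line. The *RB1* knockout cells of the same study were not analysed here.

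Homologous recombination repairs a double-strand break by copying the intact sister chromatid, and therefore works mainly in S and G2 phase. The ends of the break are cut back to single strands, BRCA1 and BRCA2 help a protein filament form on them, the filament invades the sister, and the joined molecules are then taken apart. The Fanconi pathway removes crosslinks between the DNA strands and hands the resulting breaks to recombination. The kinases ATM and ATR report breaks and stalled forks to CHEK2 and CHEK1, which hold the cell cycle. In the breast, inherited loss of *BRCA1*, *BRCA2* or *PALB2* raises the risk of cancer. Several genes of the pathway are known targets of E2F, the transcription factor family that the retinoblastoma protein restrains, and sequences before some of their start sites are shown for this reason.

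The 150 bases before a RefSeq transcription start site of each of 6 genes are given here from the RefSeq promoter table (GRCh38.p14), 5′ to 3′ on the strand of the gene. For *RMI1* and *FANCC*, with 2 such start sites each, the one with the most E2F words is shown. Of these genes, *RAD51AP1*, *RMI1* and *BLM* fell, *FANCC* did not pass the test, and *CHEK2* and *FANCM* rose. Capitals mark an E2F word of 7 letters (TTTCCCGC, TTTCGCGC, TTTGCCGC or TTTGGCGC, each without its first T) or a CCAAT box (CCAAT), on either strand. A word on the other strand appears as its reverse complement, such as ATTGG for the CCAAT box.
RAD51AP1 (chr12:4538740-4538889, plus strand): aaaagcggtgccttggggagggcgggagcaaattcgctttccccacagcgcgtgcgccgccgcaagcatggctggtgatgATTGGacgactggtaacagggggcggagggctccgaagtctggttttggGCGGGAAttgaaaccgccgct
RMI1 (chr9:83980655-83980804, plus strand): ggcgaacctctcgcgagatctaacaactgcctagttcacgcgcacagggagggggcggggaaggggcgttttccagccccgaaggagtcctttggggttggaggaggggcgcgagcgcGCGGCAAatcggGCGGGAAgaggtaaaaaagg
BLM (chr15:90717196-90717345, plus strand): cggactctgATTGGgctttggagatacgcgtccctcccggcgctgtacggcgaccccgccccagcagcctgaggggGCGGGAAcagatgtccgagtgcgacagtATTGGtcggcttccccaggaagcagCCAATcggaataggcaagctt
FANCC (chr9:95317710-95317859, minus strand): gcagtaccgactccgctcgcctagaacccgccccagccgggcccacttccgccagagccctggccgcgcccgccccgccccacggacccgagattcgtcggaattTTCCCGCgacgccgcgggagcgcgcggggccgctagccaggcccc
CHEK2 (chr22:28741821-28741970, minus strand): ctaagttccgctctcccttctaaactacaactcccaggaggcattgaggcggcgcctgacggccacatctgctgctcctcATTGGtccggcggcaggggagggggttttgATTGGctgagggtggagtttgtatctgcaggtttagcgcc
FANCM (chr14:45135780-45135929, plus strand): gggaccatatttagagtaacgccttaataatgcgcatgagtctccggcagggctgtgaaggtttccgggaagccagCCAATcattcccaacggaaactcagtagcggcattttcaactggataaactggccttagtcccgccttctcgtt
The 3 genes that fell each held an E2F word in the stretch shown, and so did *FANCC*, while those of *CHEK2* and *FANCM* held a CCAAT box and no E2F word. The stretch before the other *RMI1* start site held CCAAT boxes and no E2F word. These 6 genes were picked after their words and changes were known, and the start sites by their words, so they illustrate the words and support nothing.

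The table matched 35 of the 39 genes, and the windows searched were 300 bases long, from 250 before to 50 after a start site. An 8-letter E2F word (TTTCCCGC, TTTCGCGC, TTTGCCGC or TTTGGCGC, both strands) was found for 4 of the 12 genes that fell and had a window (33.3%), for 3 of the 18 not called (16.7%) and for 0 of the 2 that rose, against 7.04% of the 8590 tested genes with a window and 3.99% of all 27305 genes of the table. The 7-letter words, left when the first T is dropped and which were searched after the data had been seen, were found for 10 of the 12 (83.3%), 9 of the 18 (50.0%) and 0 of the 2, against 26.1% and 15.3%. The CHR element of genes active in G2 phase (TTTGAA) was found for 1 of the 12 (8.33%), 3 of the 18 (16.7%) and 0 of the 2, against 13.0% of tested genes and 18.2% of all. CCAAT was found for 7 of the 12 (58.3%), 7 of the 18 (38.9%) and both genes that rose, against 44% of tested genes and 39.7% of all. Of the 3 genes with a window and too few counts for a test, 2 held an 8-letter E2F word (66.7%) and 3 a 7-letter word (100%). A gene with more than 1 window was counted if any of its windows held the word. By these counts an E2F word was more frequent among genes that fell or did not pass than over all tested genes. It was absent from the windows of the 2 that rose. Those 2 and the 3 not tested are too few to compare with a share. These shares are descriptions without a test. GCGCCAA, the other strand of an E2F word, can share bases with CCAAT, and a match of letters is not a bound site.

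Each library held between 3317860 and 4013156 counts. Levels are given as CPM, counts scaled to a common library size with TMM factors, for replicates 1, 2 and 3 in that order. The libraries count 3′ ends, so a transcript gives counts regardless of its length. A count of 0 allows a level of up to 0.740 to 0.909 CPM, depending on the library. The median of each gene's log2 level relative to its DMSO mean, over the 35 genes tested, was -0.06, -0.01 and 0.07 in the DMSO libraries and -0.59, -0.48 and -0.53 in the abemaciclib libraries, so that no abemaciclib library reached the range of the DMSO libraries. Over all genes tested the same median stayed between 0.0018 and 0.0122. The 35 include the 6 genes that passed the filter through the DMSO libraries alone, which favours lower medians with abemaciclib. Fold changes below are log2 values of abemaciclib over DMSO from edgeR's quasi-likelihood test, with the standard error (SE) and a p adjusted over all 10863 genes. Their median was -0.53 for the 35 genes and -0.0018 for all genes, with 29 of the 35 below 0 and 6 above. Where every library had to hold 10 counts, the median of the 27 genes left was -0.52. In RNA from whole cultures, fewer cells of a type and less RNA per cell cannot be told apart. All 8 markers of luminal breast epithelium exceeded 100 CPM in every library. Of 17 markers of other cell types 16 stayed under 2 CPM and 11 were at 0 in every library, and *COL1A1*, the exception, was at 13.1 ± 2.68 CPM with DMSO and 12.5 ± 2.67 with abemaciclib (SD, n = 3).

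**Figure D1:**
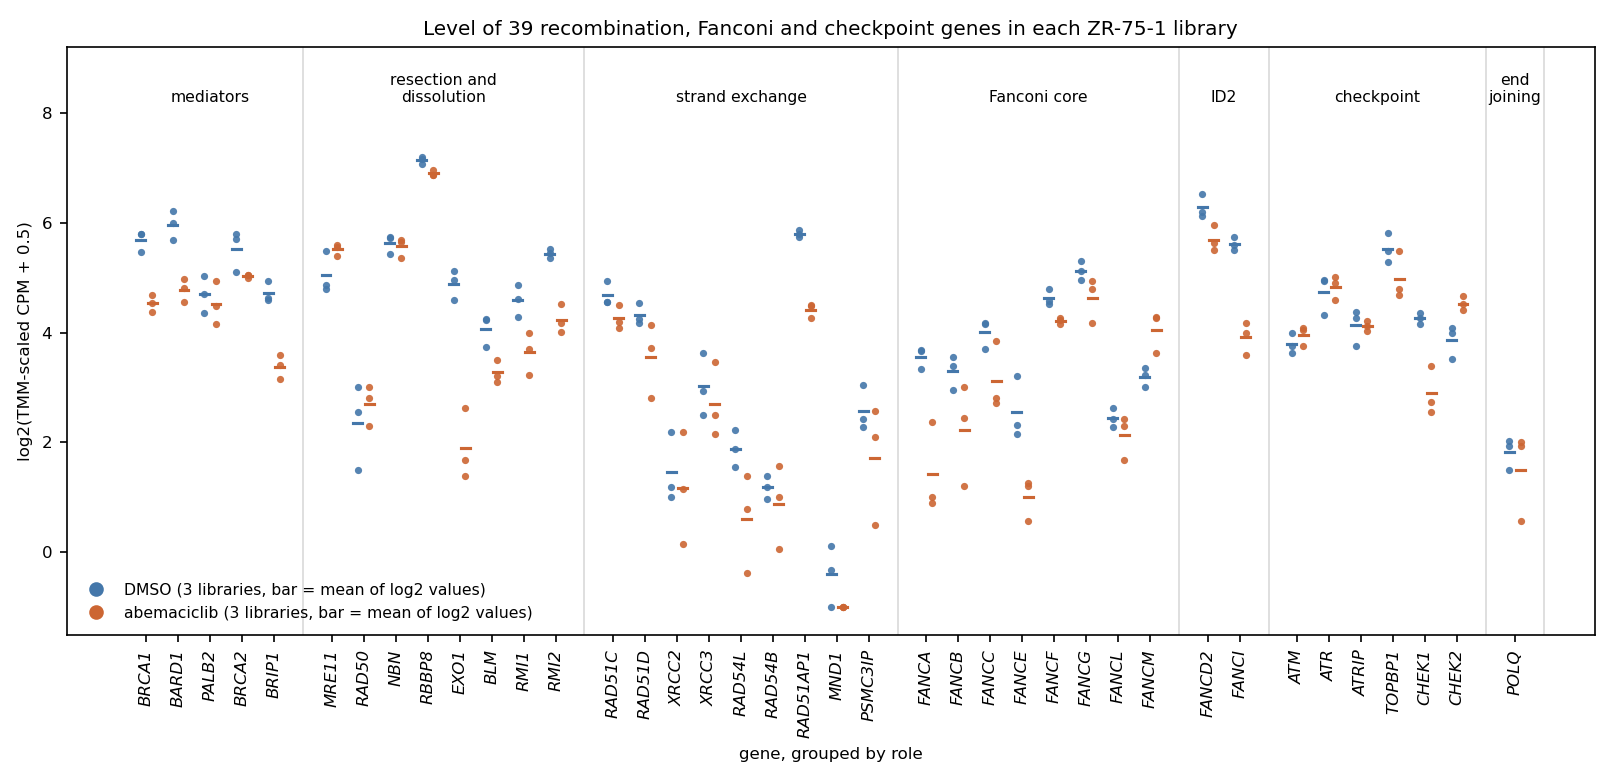
Level of each of the 39 genes in each library, on a log2 axis of TMM-scaled CPM plus 0.5, with genes grouped by role along the horizontal axis. Points are single libraries (3 per group) and bars the mean of the log2 values; the groups stand apart for genes such as *EXO1*, *RAD51AP1* and *FANCI* and overlap for genes such as *NBN*, *ATR* and *PALB2*.

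Among the 5 recombination mediators, 4 fell (80.0%, background 13.3%) and *PALB2* did not pass the test (median log2 fold change -1.17). *BRCA1*, a ubiquitin ligase that favours end resection and recruits PALB2, was at 55.1, 44 and 54.8 CPM with DMSO and at 20.3, 25.2 and 22.7 with abemaciclib, and the groups did not overlap. The level was 2.25-fold lower (log2 fold change -1.17, SE 0.18, adjusted p = 9.165e-06). *BARD1*, its obligate partner in the ligase, was at 73.4, 51.1 and 63.3 CPM with DMSO and at 30.9, 27.6 and 23.0 with abemaciclib. Its fall was of like size (-1.21, SE 0.17, adjusted p = 4.015e-06). *BRIP1*, a helicase that binds BRCA1, was at 24.4, 23.8 and 30.0 CPM and at 11.5, 10.1 and 8.38, which gave the largest fall of the mediators (-1.38, SE 0.24, adjusted p = 7.146e-05). *BRCA2*, which acts on the resected single-stranded DNA, was at 54.8, 33.9 and 51.5 CPM with DMSO and at 31.5, 32.6 and 32.7 with abemaciclib. DMSO replicate 2 lay just above the highest abemaciclib library, and the fall was small (-0.53, SE 0.18, adjusted p = 0.029). It passed in only 6 of 12 alternative fits. *PALB2*, the bridge between BRCA1 and BRCA2, was at 20.01, 32.1 and 25.4 CPM with DMSO and at 17.2, 22.0 and 30.0 with abemaciclib. Its groups overlapped, with a log2 fold change of -0.16 and a 95% confidence interval from -0.63 to 0.31.

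Of the 8 genes of end resection and dissolution, 4 fell (50.0%, background 13.3%) and 4 did not pass the test (median -0.53). *EXO1* (chr1:241847967-241895148, plus strand), the exonuclease of long-range resection, had the largest change of all 35 genes. It was at 23.5, 34.5 and 30.6 CPM with DMSO and at 2.12, 5.67 and 2.7 with abemaciclib (-3.03, SE 0.31, adjusted p = 1.374e-08), with abemaciclib counts of 7, 23 and 10. The helicase *BLM* and its subunits RMI1 and RMI2 take apart double Holliday junctions without crossover, and all 3 genes fell, although *BLM* passed in only 6 of 12 alternative fits (adjusted p = 0.0824 with DESeq2). *RMI2* was at 45.2, 40.4 and 43.0 CPM with DMSO and at 17.5, 22.4 and 15.7 with abemaciclib (-1.20, SE 0.19, adjusted p = 2.053e-05). *RMI1* was at 24.1, 28.8 and 19.1 CPM and at 15.4, 8.88 and 12.4 (-0.98, SE 0.25, adjusted p = 0.00443). *BLM* was at 18.3, 12.8 and 18.5 CPM and at 8.77, 10.9 and 8.11 (-0.83, SE 0.28, adjusted p = 0.0292). For none of the 3 did a library of one group reach the range of the other.

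The genes that start resection did not pass the test. *RBBP8*, which encodes the MRE11 cofactor CtIP, was at 142, 146 and 133 CPM with DMSO and at 116, 117 and 124 with abemaciclib. All abemaciclib libraries lay below all DMSO libraries, but the difference was small (log2 fold change -0.24, adjusted p = 0.107, 95% interval from -0.46 to -0.02). *MRE11*, the nuclease of the MRN complex, was at 44.1, 27.3 and 28.8 CPM with DMSO and at 46.6, 41.7 and 48.1 with abemaciclib. DMSO replicate 1 fell inside the abemaciclib range, and the log2 fold change of 0.44 had an adjusted p of 0.0766. *NBN*, the MRN subunit that recruits ATM, was at 42.6, 53.2 and 52.4 CPM and at 49.9, 40.7 and 51.1, and the interval of its change ran from -0.39 to 0.26. *RAD50*, the ATPase of the complex, was low, at 2.32, 5.35 and 7.57 CPM with DMSO and at 7.56, 4.44 and 6.49 with abemaciclib. Its counts of 8 to 25 per library left a wide interval, from -0.66 to 1.20.

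In strand exchange 1 of the 5 tested genes fell (20.0%, background 13.3%) and 4 did not pass the test. Another 4 had too few counts to be tested. *RAD51AP1*, which stimulates strand invasion, was at 52.8, 57.6 and 54.8 CPM with DMSO and at 21.8, 18.8 and 22.2 with abemaciclib. The libraries of each group lay close together and the gene was 2.64-fold lower (-1.40, SE 0.17, adjusted p = 3.034e-07). *RAD51C* and *RAD51D* encode subunits of complexes that act before strand invasion. *RAD51C* was at 30.2, 23.2 and 23.0 CPM with DMSO and at 22.1, 16.5 and 17.8 with abemaciclib (-0.44, adjusted p = 0.142). *RAD51D* was at 22.6, 18.4 and 17.6 CPM and at 12.7, 17.0 and 6.49 (-0.69, adjusted p = 0.0748). In neither did the groups overlap, and neither passed the test. *XRCC3*, the partner of RAD51C, was at 11.9, 7.13 and 5.15 CPM with DMSO and at 10.6, 3.95 and 5.13 with abemaciclib, with overlapping groups and an interval from -1.18 to 0.54. *PSMC3IP*, which encodes the meiotic recombination factor HOP2, had a log2 fold change of -0.70 with an interval from -1.76 to 0.35.

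The 4 strand exchange genes without a test were near the limit of this depth. *XRCC2*, the partner of RAD51D, had 14, 6 and 5 counts with DMSO and 2, 7 and 15 with abemaciclib. *RAD54L*, a DNA translocase, had 11, 14 and 8 counts and 7, 5 and 1. *RAD54B*, its relative, had 5, 6 and 7 counts and 5, 10 and 2. Of these only *RAD54L* had abemaciclib libraries that all lay below all DMSO libraries. *MND1*, the HOP2 partner in meiotic recombination, had 2, 0 and 1 counts and then 0 in each abemaciclib library, and no fold change is given for it.

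Of the 8 genes of the Fanconi core complex, the ubiquitin ligase that marks FANCD2 and FANCI, 2 fell, 1 rose and 5 did not pass the test (median -0.64). These shares were 25.0% lower and 12.5% higher, against backgrounds of 13.3% and 12.5%. *FANCA* (chr16:89726683-89816977, minus strand), which helps hold the complex together, was at 9.57, 12.2 and 12.4 CPM with DMSO and at 1.51, 4.69 and 1.35 with abemaciclib. It was 4.36-fold lower (-2.13, SE 0.45, adjusted p = 0.000615), on abemaciclib counts of 5, 19 and 5, and without abemaciclib replicate 2 the log2 fold change was -2.96. *FANCE*, the subunit that contacts FANCD2, was at 8.70, 4.46 and 3.94 CPM with DMSO and at 1.81, 0.987 and 1.89 with abemaciclib (-1.86, SE 0.55, adjusted p = 0.0125). It had 4 to 7 counts in the abemaciclib libraries and passed in 9 of 11 alternative fits. *FANCM* (chr14:45135930-45200890, plus strand), the translocase that anchors the complex on DNA, went the other way. It was at 7.54, 8.91 and 9.69 CPM with DMSO and at 11.8, 18.8 and 18.9 with abemaciclib, without overlap, and was 1.9-fold higher (0.92, SE 0.29, adjusted p = 0.0175, 95% interval from 0.33 to 1.52).

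The other subunits of the core complex had log2 fold changes below 0 that did not pass the test. *FANCC* was at 12.5, 17.5 and 17.3 CPM with DMSO and at 6.05, 13.8 and 6.49 with abemaciclib (-0.82, adjusted p = 0.0560). Abemaciclib replicate 2 lay above DMSO replicate 1, so the groups overlapped. *FANCG* was at 30.4, 34.2 and 38.8 CPM and at 30.2, 27.1 and 17.6 (-0.47, adjusted p = 0.0964). *FANCF* was at 23.2, 22.6 and 27.3 CPM and at 17.2, 18.8 and 18.4 (-0.42, adjusted p = 0.151). For *FANCG* and *FANCF* the groups did not overlap, although the closest libraries of *FANCG* were at 30.4 CPM with DMSO and 30.2 with abemaciclib. How many of all genes tested had groups apart in this way was not counted. Separation without a passed test is therefore not read as a fall here. *FANCB* had a log2 fold change of -0.97 with an interval from -1.84 to -0.11 (adjusted p = 0.0908). *FANCL*, the catalytic subunit, had one of -0.29 with an interval from -1.23 to 0.65.

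Both genes of the ID2 complex, the clamp that the core complex ubiquitinates at a crosslink, fell (background 13.3%). *FANCI* (chr15:89243945-89317261, plus strand) was at 52.8, 47.5 and 45.1 CPM with DMSO and at 17.5, 11.6 and 15.4 with abemaciclib (-1.71, SE 0.20, adjusted p = 9.725e-08). *FANCD2* was at 72.8, 69.2 and 91.8 CPM with DMSO and at 61.7, 44.7 and 48.9 with abemaciclib (-0.59, SE 0.15, adjusted p = 0.00402). Neither gene had overlapping groups. *FANCI* was 3.28-fold lower and *FANCD2* 1.51-fold lower.

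Of the 6 checkpoint genes 1 fell, 1 rose and 4 did not pass the test (median 0.02). At 16.7% each, these shares were near the backgrounds of 13.3% lower and 12.5% higher. Of the effector kinase genes, 1 fell and 1 rose, the rise being lost in 7 of 12 alternative fits. *CHEK1*, the target of ATR, was at 17.4, 19.9 and 18.8 CPM with DMSO and at 9.98, 6.17 and 5.40 with abemaciclib, and was 2.62-fold lower (-1.39, SE 0.29, adjusted p = 0.000647). *CHEK2* (chr22:28687743-28742422, minus strand), the target of ATM, was at 16.5, 11 and 15.4 CPM with DMSO and at 24.8, 20.7 and 22.4 with abemaciclib, and was 1.58-fold higher (0.66, SE 0.23, adjusted p = 0.039, 95% interval from 0.18 to 1.14). Neither kinase gene had overlapping groups. *TOPBP1*, the activator of ATR, was at 38.6, 44.3 and 55.4 CPM and at 27.2, 44.2 and 25.1, with abemaciclib replicate 2 inside the DMSO range (-0.51, adjusted p = 0.0584). *ATR* itself was at 30.7, 30.3 and 19.4 CPM with DMSO and at 31.8, 29.4 and 23.8 with abemaciclib (interval from -0.35 to 0.50). Its subunit gene *ATRIP* was at 18.8, 20.2 and 13.0 CPM and at 15.7, 16.8 and 18.1 (interval from -0.54 to 0.45). *ATM* was at 13.0, 11.9 and 15.4 CPM and at 13.0, 16.5 and 15.9 (interval from -0.35 to 0.70). The groups of these 3 genes overlapped. *POLQ*, the polymerase of theta-mediated end joining, a backup to recombination, had 8 to 12 counts with DMSO and 4 to 13 with abemaciclib, and its log2 fold change of -0.25 had an interval from -1.41 to 0.91.

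**Figure D2:**
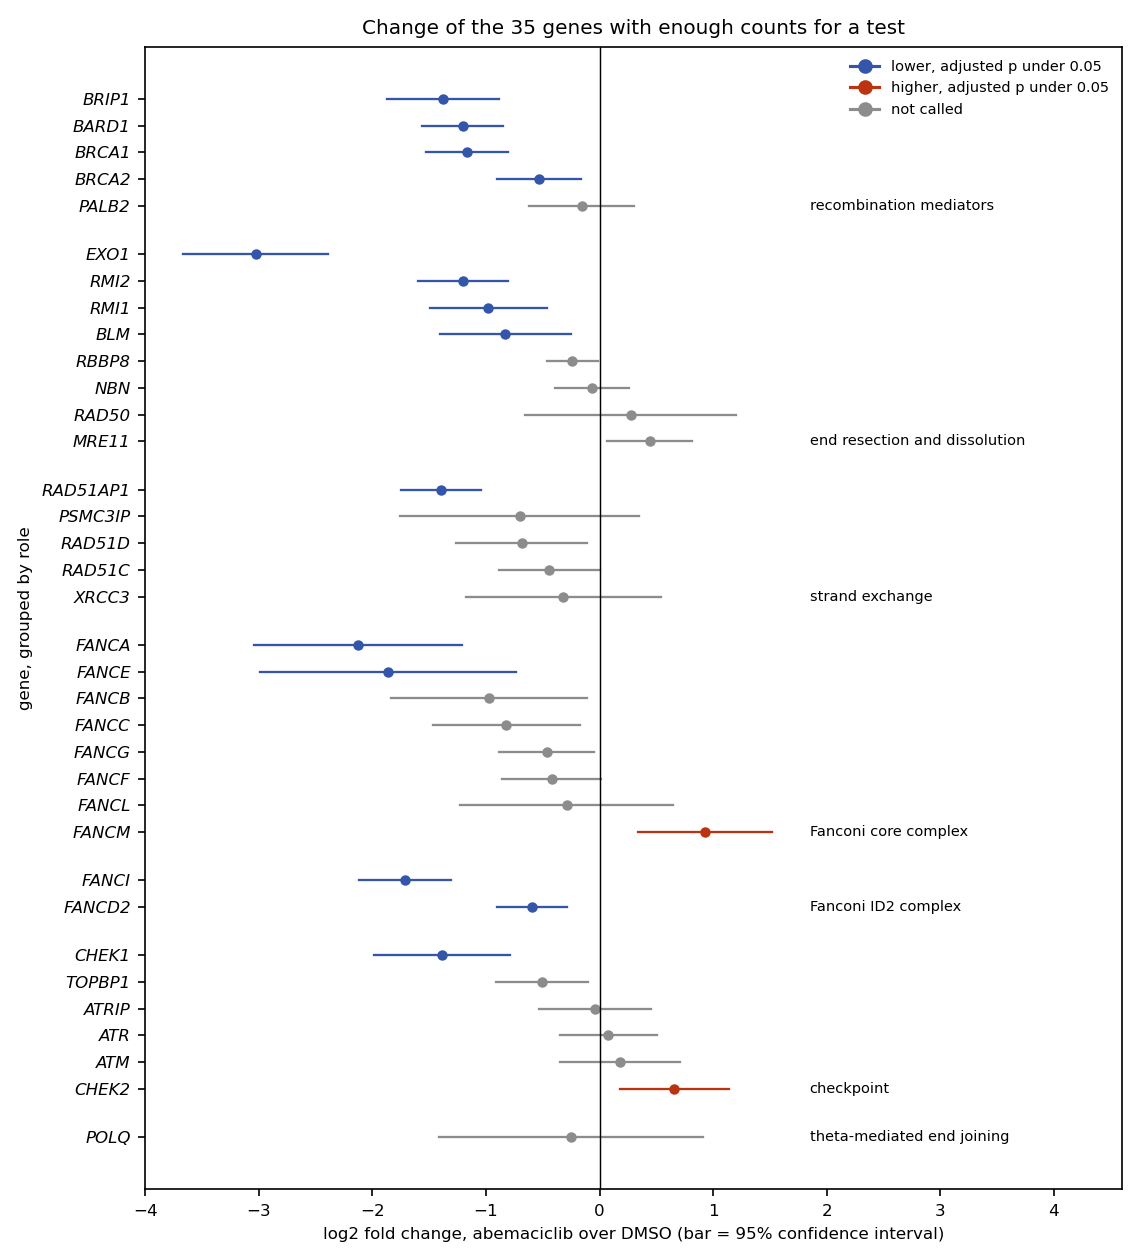
Log2 fold change of the 35 tested genes (horizontal axis, abemaciclib over DMSO) with 95% confidence intervals, grouped by role and ordered within each role. Blue genes fell and red genes rose at an adjusted p under 0.05; the changes run from -3.03 for *EXO1* to 0.92 for *FANCM*, and grey genes did not pass the test.

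Genes whose proteins work as 1 complex were compared as the log2 ratio of their counts within each library, which needs no scaling between libraries. Of the 11 pairs set out, 9 had both genes tested, and 3 libraries against 3 cannot give a p below 0.1 in the exact two-sided permutation test. The ratio of *FANCD2* to *FANCI* was 0.46, 0.54 and 1.02 with DMSO and 1.81, 1.93 and 1.66 with abemaciclib. The groups did not overlap and the mean ratio was higher by 1.12 (exact permutation p = 0.1, the smallest possible, adjusted over 9 pairs p = 0.45), so the fall of *FANCI* exceeded that of *FANCD2* in these libraries without passing a corrected test. Reads of *FANCI* may be shared with *POLG* on the other strand, which could move this ratio and was not tested. The ratio of *BLM* to *RMI2* was -1.30, -1.65 and -1.21 with DMSO and -0.99, -1.04 and -0.94 with abemaciclib. It was higher by 0.40, also without overlap (exact permutation p = 0.1, adjusted p = 0.45). The ratio of *BRCA1* to *BARD1* was -0.28 ± 0.12 with DMSO and -0.25 ± 0.31 with abemaciclib (SD, n = 3), a difference of 0.03 (exact permutation p = 0.9), which lies within the spread between libraries. The other 6 pairs overlapped, with differences from -0.33 for *BRCA2* to *PALB2* up to 0.45 for *RAD50* to *NBN* (exact permutation p from 0.4 to 1, adjusted p = 1 for each).

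Another 55 genes of the same pathways were read beside the 39, of which 54 were tested (*RAD52* was not). Of the 54, 19 fell (35.2%, background 13.3%), 4 rose (7.41%, background 12.5%) and 31 did not pass the test, with a median log2 fold change of -0.31. Of the checkpoint genes among them 7 of 12 fell (58.3%) and 2 rose (16.7%), and of the Fanconi genes 5 of 13 fell (38.5%) and 2 rose (15.4%). Of the recombination genes 7 of 29 fell (24.1%) and 0 rose (edgeR, with 1 higher at an unadjusted p under 0.05, and 0 called by DESeq2). Without abemaciclib replicate 2, 1 of these recombination genes rose. *CLSPN*, which encodes the adaptor claspin through which ATR reaches CHEK1, was at 64.7, 74.6 and 62.1 CPM with DMSO and at 2.72, 5.18 and 4.32 with abemaciclib (-4.01, SE 0.23, adjusted p = 4.733e-14). *H2AX*, the histone variant phosphorylated around breaks, was at 89.0, 107 and 95.1 CPM and at 22.7, 21.5 and 16.2 (-2.27, SE 0.16, adjusted p = 5.896e-12). Both had abemaciclib libraries far below every DMSO library. The largest rises were those of *ERCC1*, a subunit of the nuclease that unhooks crosslinks (0.80, SE 0.21, adjusted p = 0.00518), *FAAP100*, a subunit of the Fanconi core complex (0.63, SE 0.19, adjusted p = 0.0153), and *RAD17*, the loader of the checkpoint clamp (0.61, SE 0.22, adjusted p = 0.0363). *RAD1*, a subunit of that clamp, was the fourth gene to rise (0.44).

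Of the 14 genes that fell, 11 passed the test in every alternative fit that included them. The minimum log2 change of 1 is not counted among these fits, and *FANCD2* and *RMI1*, both among the 11, did not reach it. *BRCA2* and *BLM* each passed in 6 of 12, *FANCE* in 9 of 11, *FANCM* in 7 of 12 and *CHEK2* in 5 of 12. With all 6 libraries, DESeq2 gave adjusted p = 0.0814 for *BRCA2*, 0.0824 for *BLM*, 0.0506 for *FANCM* and 0.0984 for *CHEK2*, the replicate block 0.0567 for *BRCA2* and 0.0534 for *BLM*, and the fit without a filter 0.0543 for *CHEK2*. The calls were also lost when single libraries were left out. Without DMSO replicate 1 the adjusted p was 0.174 for *BRCA2*, 0.105 for *BLM*, 0.143 for *FANCE* and 0.0717 for *FANCM*. Without DMSO replicate 2 it was 0.05002 for *FANCM* and 0.188 for *CHEK2*, and without DMSO replicate 3 it was 0.116 for *BRCA2*, 0.103 for *BLM* and 0.0581 for *CHEK2*. Without abemaciclib replicate 1 it was 0.0664 for *BRCA2*, 0.0690 for *BLM* and 0.111 for *CHEK2*. Without abemaciclib replicate 2 it was 0.0722 for *BRCA2*, 0.0724 for *FANCE*, 0.0779 for *FANCM* and 0.0519 for *CHEK2*, and without abemaciclib replicate 3 it was 0.0750 for *BLM*, 0.0599 for *FANCM* and 0.0560 for *CHEK2*. Each of these genes kept its direction throughout.

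Other genes passed the test when 1 library was left out. *MRE11* rose without DMSO replicate 1 (0.69, adjusted p = 0.0128). *FANCC* fell without DMSO replicate 1 (adjusted p = 0.0488) or abemaciclib replicate 2 (adjusted p = 0.00677), and *TOPBP1* without the same libraries (adjusted p = 0.0438 and 0.00626). *RAD51D* fell without abemaciclib replicate 2 (adjusted p = 0.0208), *FANCG* without abemaciclib replicate 1 (adjusted p = 0.0479) and *FANCB* without abemaciclib replicate 3 (adjusted p = 0.0176). Reads of 5 of the 39 genes may be shared with a gene on the other strand that has an exon in their last 500 bases (*FANCA* with *ZNF276*, *FANCI* with *POLG*, *FANCL* with *VRK2*, *PSMC3IP* with *MLX* and *RAD54L* with *LRRC41*), since the strand setting of the counting is not given in the sources used here. Of these genes *RAD54L* was not tested. Without them 12 of the others fell and 2 rose, compared with 14 and 2 of all 35 genes tested. The backgrounds over all genes were 13.3% lower and 12.5% higher. On the same strand, the last 500 bases of *ATRIP* overlap *TREX1*, and those of *RAD50*, *MND1* and *FANCG* overlap Ensembl genes without a symbol, so their counts may be split. *CHEK2* has 7 pseudogenes in the table, which held 1 count in all libraries together.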

How the data were processed

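RNA from 6 cultures of ZR-75-1 cells, 3 per treatment, was sequenced as single-end 3′ mRNA libraries (Lexogen QuantSeq). By the study's methods and the submitters' processing notes, the authors trimmed reads, aligned them to hg38 with STAR 2.7.5b and counted them with featureCounts 2.0.1 against GENCODE genes. The authors deposited raw counts per gene, not normalized. Samples were grouped by the treatment in their labels.

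Of 60656 genes, 10863 passed edgeR's filterByExpr and were fitted in edgeR 4.0.16 (R 4.3.3) with TMM scaling by the quasi-likelihood test. The p-values were adjusted by the Benjamini-Hochberg method over these genes, with a threshold of 0.05. Libraries held 3317860 to 4013156 counts and the biological coefficient of variation was 13.2%. Floors from a count of 0 (3 counts) cover counting error only, since the counts are of reads. The fit was tested on simulated counts with 200 changed genes and the same coefficient of variation for every gene. Of the changed genes tested, 82.65% were recovered at a log2 change of 1 in size and 100% at 2. With 0 genes changed, 0 were called. Far more genes were called in the real data, so these shares need not hold there. Alternatives were DESeq2 1.42.0, other scalings and filters, a replicate block, a minimum log2 change of 1, another pseudocount for the ratios (2 in place of 0.5) and each library left out in turn. Ratios of partner genes were compared by exact permutation of the libraries. Gene positions come from a GENCODE annotation of hg38 and promoter sequences from RefSeq.

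The genes and lists were chosen with earlier results of these data known. Every gene of the 39 is named. Values in each library are given for those with a mean of at least 10 CPM in 1 group, the 3 with the largest falls, those that rose and those of the partner pairs. Of the other pathway genes, the 3 largest falls and rises with a mean of at least 5 CPM are given, except 1 that is not reported here, and *RAD1* was added after its values were seen.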

Additional observations from a re-analysis of the deposited data

How the results depend on the processing

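Of the 39 genes, the number that fell was 12 with DESeq2, 16 without a filter on low counts and 12 to 15 with 1 library left out. Over all genes the same settings gave 1165, 1429 and 1132 to 1529. Where each library had to hold 10 counts, 11 of 27 fell (40.7%), against 13.5% of 9458 genes. A count without the 6 genes that passed the filter through DMSO only, added after the data were seen, gave 11 lower and 2 higher of 29. The number that rose, 2 by edgeR, was 0 with DESeq2 (3 at an unadjusted p under 0.05), 1 without the filter and 0 to 2 with 1 library left out, where edgeR called 0 without DMSO replicate 2 (1 at an unadjusted p under 0.05) or without abemaciclib replicate 2 or 3 (3 each). Over all genes the number that rose was 1069 with DESeq2, 1335 without the filter and 981 to 1412 with 1 library left out. At a minimum log2 change of 1, 10 of the 35 genes fell and 0 rose (edgeR, 3 higher at an unadjusted p under 0.05 of any size). By the same rule 11 of the 54 other pathway genes fell and 0 rose, and 645 of the 10863 genes tested fell and 322 rose. The median change of the 35 genes ran from -0.61 (without abemaciclib replicate 1) to -0.51. Of the other pathway genes 2 to 4 rose with 1 library left out, the 2 without any 1 of the DMSO replicates. Without the filter *FANCC* (adjusted p = 0.0480) and *TOPBP1* (0.0392) passed. Genes that never passed changed sign with 1 library left out, with log2 fold changes from -0.39 to 0.024 for *PALB2*, -0.079 to 0.67 for *RAD50*, -0.17 to 0.035 for *NBN*, -0.83 to 0.072 for *XRCC3*, -0.11 to 0.19 for *ATR*, -0.21 to 0.079 for *ATRIP* and -0.54 to 0.16 for *POLQ*. Causes were not tested.

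Same-numbered libraries shared little, as their deviations from the group mean correlated at -0.04, 0.007 and -0.09. With 3 libraries per group this cannot show whether same-numbered cultures were set up together. With the replicate block 13 of the genes fell and 2 rose, and over all genes 1280 fell and 1139 rose. *BRCA2* (adjusted p = 0.0567) and *BLM* (0.0534) no longer passed and *FANCC* (0.0430) did. The blocked difference for *FANCD2* to *FANCI* was 1.12, with an exact p of 0.25, the smallest that 3 pairs allow. Depth limits the low genes: the 4 that were not tested held at most 15 counts in any library.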
